A study of Mus musculus with 16 samples.

Results

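GABA, the main inhibitory transmitter of the forebrain, is made from glutamate by the glutamic acid decarboxylases, loaded into vesicles, sensed by ionotropic GABA-A and metabotropic GABA-B receptors and then taken up and broken down. GABA-A receptors are chloride channels, so the sign and size of their current depend on the chloride gradient that cation-chloride cotransporters set. Glycine receptors belong to the same channel family, and gephyrin anchors both kinds of receptor at inhibitory synapses. The genes examined here are 27 genes of this system of 55385 listed genes, chosen by name and role. They comprise 5 GABA-A receptor alpha subunits, 2 beta subunits, 4 gamma, delta and epsilon subunits, 2 GABA-B receptor subunits, 5 genes of GABA synthesis, packaging, uptake and breakdown, 2 cation-chloride cotransporters, 4 glycine receptor subunits and 3 scaffold or receptor-associated proteins.

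They were measured by RNA sequencing in 16 libraries of primary hippocampal cultures from newborn C57Bl/6N mice, in 4 groups of 4. All cultures carried a recombinant adeno-associated virus that expressed an shRNA from the U6 promoter together with GFP, either the Control-shRNA or an shRNA against Dnmt3a1, the long isoform of the de novo DNA methyltransferase gene Dnmt3a. Each kind of culture was sequenced at baseline and after 4 h of bicuculline, a GABA-A receptor antagonist that raises network firing by disinhibition. The groups are called Control-shRNA baseline, Control-shRNA bicuculline, Dnmt3a1-shRNA baseline and Dnmt3a1-shRNA bicuculline. The knockdown groups carried 1 shRNA sequence, so that loss of Dnmt3a1 and other effects of that sequence cannot be told apart.

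The libraries held between 28912697 and 29586355 estimated counts. Dnmt3a, counted over its isoforms together, was at 293 to 324 CPM (counts scaled to library depth after TMM normalization) in Control-shRNA baseline and at 39.4 to 48.1 CPM in Dnmt3a1-shRNA baseline, a log2 fold change of -2.81 ± 0.06 (SE; edgeR adjusted p = 8.86e-15). The 10 pan-neuronal markers summed to between 6323 and 7444 TPM (a share of transcripts scaled for their length) in the 16 libraries, the 13 astrocyte markers to between 508 and 923 TPM and the 10 microglia markers to between 3.61 and 10.6 TPM, so markers of neurons and of glia were both detected. In such bulk samples, fewer cells of a type and less RNA per cell cannot be told apart. All 16 immediate early genes examined rose with bicuculline in both kinds of culture, with a median log2 fold change of 3.86 in Control-shRNA and 4.08 in Dnmt3a1-shRNA cultures.

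Levels are given per library in CPM, in the order of replicates 1 to 4, and levels of different genes are compared only in TPM, which is scaled for transcript length. A gene rose or fell where the edgeR quasi-likelihood test gave a Benjamini-Hochberg adjusted p under 0.05 over the 17222 genes tested, and it was called where the log2 fold change also exceeded 0.5 in size. Of the 27 genes, 25 passed the filter on low counts. The other two, Gabra6, the cerebellar granule cell alpha subunit, and Glra1, the main adult glycine receptor alpha subunit, had at most 4 and 3 estimated counts in any library and were at 0 in 7 and 3 of 16 libraries. Values were scaled by TMM, under which the middle gene's log2 fold change with bicuculline was 0.01 in Control-shRNA cultures. With scaling to library size alone that median over genes was -0.15 in Control-shRNA and -0.16 in Dnmt3a1-shRNA cultures, and the share of called genes that were higher went from 49.2% to 31% in the former and from 48.9% to 32.8% in the latter. For the knockdown the share went from 30.2% to 14.2% at baseline and from 33.9% to 19.2% with bicuculline. Small rises with bicuculline are therefore stated with what this other scaling gave.

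Stretches upstream of the RefSeq starts of 4 genes that moved with bicuculline are shown because knockdown targeted a DNA methyltransferase and CpG dinucleotides are the sites of DNA methylation, which was not measured here. The sequences are from RefSeq on GRCm38.p6, run 5′ to 3′ on the gene's own strand, leave out every annotated exon and have CpG in capitals. Gad1 is at chr2:70561879-70562041 (plus strand; inside the longer annotated Gad1 gene but outside its exons), Gad2 at chr2:22622077-22622204 (plus), Slc6a11 at chr6:114130991-114131240 (plus) and Glra2 at chrX:165327394-165327643 (minus).
Gad1: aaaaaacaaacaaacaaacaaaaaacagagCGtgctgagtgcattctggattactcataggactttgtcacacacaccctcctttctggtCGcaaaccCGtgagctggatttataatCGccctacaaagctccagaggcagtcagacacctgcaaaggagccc
Gad2: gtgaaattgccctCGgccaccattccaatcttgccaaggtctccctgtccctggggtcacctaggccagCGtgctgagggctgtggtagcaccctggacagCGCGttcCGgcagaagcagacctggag
Slc6a11: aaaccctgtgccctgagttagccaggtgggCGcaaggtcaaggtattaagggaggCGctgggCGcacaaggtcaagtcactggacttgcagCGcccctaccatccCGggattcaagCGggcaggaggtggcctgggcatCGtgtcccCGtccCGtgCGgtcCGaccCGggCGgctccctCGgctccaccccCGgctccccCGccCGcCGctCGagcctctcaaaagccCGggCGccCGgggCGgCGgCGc
Glra2: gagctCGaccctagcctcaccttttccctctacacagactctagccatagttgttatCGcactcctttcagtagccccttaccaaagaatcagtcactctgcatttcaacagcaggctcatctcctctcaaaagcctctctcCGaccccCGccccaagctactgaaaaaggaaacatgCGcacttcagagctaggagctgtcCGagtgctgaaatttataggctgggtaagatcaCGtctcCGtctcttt
The stretch of Slc6a11 held 25 CpG in 250 bases, 1 in every 10 bases. The printed stretches of the other 3 were sparser, with 4 CpG in 163 bases at Gad1, 5 in 128 at Gad2 and 8 in 250 at Glra2. Those of Gad1 and Gad2 stop 87 and 122 bases before the RefSeq start, where annotated exons begin, and the whole windows described next held 21 CpG at Gad1, 14 at Gad2, 32 at Slc6a11 and 9 at Glra2. RefSeq windows of 250 bases before to 50 after the start were matched for 23 of the 27 genes (28 windows), with no entry for Slc12a2, Abat, Glra1 and Gabrd. Their CpG counts ran from 0, in both windows of Gabra3, to 46, at Gabbr2, with a median of 13 against 7 over all 32851 windows. The motif TGACGTCA, the full cyclic-AMP response element, read on both strands, was in none of the 28 windows and in 1.79% of all windows. TGACTCA and its reverse complement TGAGTCA, the AP-1 site, were in 1 window, of Slc12a5, against 5.2% of all windows. The E-box CACGTG was in 1 window, the other one of Slc12a5, against 7.15%. No one of these motifs contains another, and a match is a description of the window only.

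Among the receptor subunits, the levels in TPM covered more than 3 orders of magnitude. Gabbr1, which binds the ligand in the GABA-B receptor, was highest in every group, at 476 ± 11.4 TPM in Control-shRNA baseline (SD, n = 4). Gabra5, the alpha subunit of extrasynaptic receptors on hippocampal pyramidal cells, had 252 ± 11.4 TPM there and Gabra2, which is rich at axon initial segments, 196 ± 22.0 TPM. The next were Gabbr2, the GABA-B subunit that couples to the G protein, at 165 ± 7.49 TPM, and Glrb, the structural beta subunit of glycine receptors, at 127 ± 12.8 TPM, where Gabbr2 overlapped Gabra2 but not Glrb. A middle tier followed with Gabra3 (66.1 ± 11.7 TPM), Gabrb2 (45.9 ± 6.62 TPM), Glra2 (41.4 ± 2.25 TPM), Gabrb1 (39.3 ± 4.93 TPM) and Gabra4 (34.9 ± 4.83 TPM), whose spreads overlapped between neighbours from Gabrb2 down. Gabrd, the delta subunit of tonic receptors, and Gabrg3 were at 14.4 ± 0.980 and 12.9 ± 2.57 TPM and overlapped. Gabrg1 was at 4.55 ± 0.816 TPM, and Gabre and Glra3 were under 1 TPM in all 4 libraries of that group. Outside the receptors, Gad1 was at 582 ± 39.0 TPM, more than the other 4 genes of GABA metabolism and transport.

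**Figure D1:**
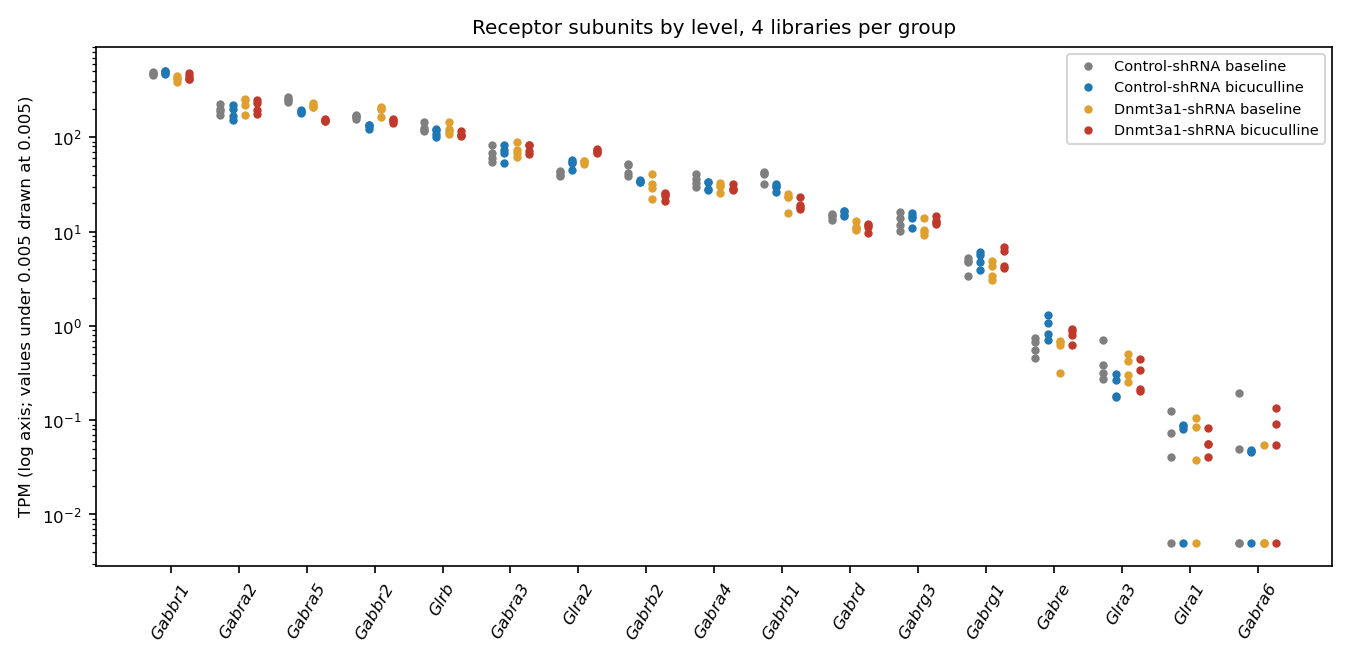
Level of the 17 receptor subunits in TPM on a log axis, 1 point per library and 4 libraries per group, ordered by the mean over all 16; libraries at 0 are drawn at the bottom. Gabbr1 stands highest in all 4 groups, and Glra1 and Gabra6 include libraries at 0.

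In Control-shRNA cultures, 4 h of bicuculline raised the transcripts of both GABA-synthesizing enzymes and of the vesicular transporter and lowered that of the GABA transporter GAT-3. Of the 25 genes tested, 11 rose and 3 fell, or 44% and 12%, where 19.5% of all genes tested rose and 21.9% fell. With the fold threshold added, 4 were called higher (16%) and 0 lower, where 10.8% and 11.1% of all genes were. Their median log2 fold change was 0.24, and that of all genes 0.01, while the median size of change was 0.26 in them and 0.27 over all genes. The balance depended on the scaling. When scaled to library size alone, 6 rose (Gad1, Gad2, Slc32a1, Glra2, Gabre and Gabbr1, all among the 11) and 6 fell, namely Gabra5, Gabrb1 and Slc6a11 as before and also Gabrb2, Gabbr2 and Gphn. Called were then 1 higher (Gabre) and 2 lower (Gabrb1 and Slc6a11), where 7.93% and 17.6% of all genes were, and limma on TPM called 0 higher and 1 lower. With library sizes alone the median was 0.08 in the 25 genes and -0.15 in all genes. The shares of all genes that rose or fell under that scaling were not computed.

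In Dnmt3a1-shRNA cultures, which share no library with that comparison, 13 rose and 3 fell with bicuculline (52% and 12%), where 20.8% of all genes rose and 25.2% fell. Same-numbered libraries of both kinds of culture did deviate together, with Pearson r from 0.313 to 0.49 at baseline and from 0.163 to 0.519 with bicuculline. Called higher were 4 (16%, against 12.6% of all genes) and called lower 1 (4%, against 13.2%). The median was 0.20 in these genes and -0.01 in all genes. A total of 13 genes passed in both kinds of culture, all in 1 direction each, and 23 of 25 had the same sign in both, where 86.2% of all genes had. The share of all genes that passed in both kinds of culture was not computed. Under scaling to library size alone 6 rose (Gad1, Gad2, Slc32a1, Glra2, Gabbr1 and Gabarapl1) and 7 fell, the 3 of the TMM fit and also Gabrb2, Gabbr2, Gphn and Glrb. Called were then 2 higher (Gad1 and Gad2) and 2 lower (Gabrb1 and Slc6a11), where 9.72% and 19.9% of all genes were. The median under that scaling was 0.06 in these genes and -0.16 in all genes, and the shares of all genes that rose or fell were not computed.

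**Figure D2:**
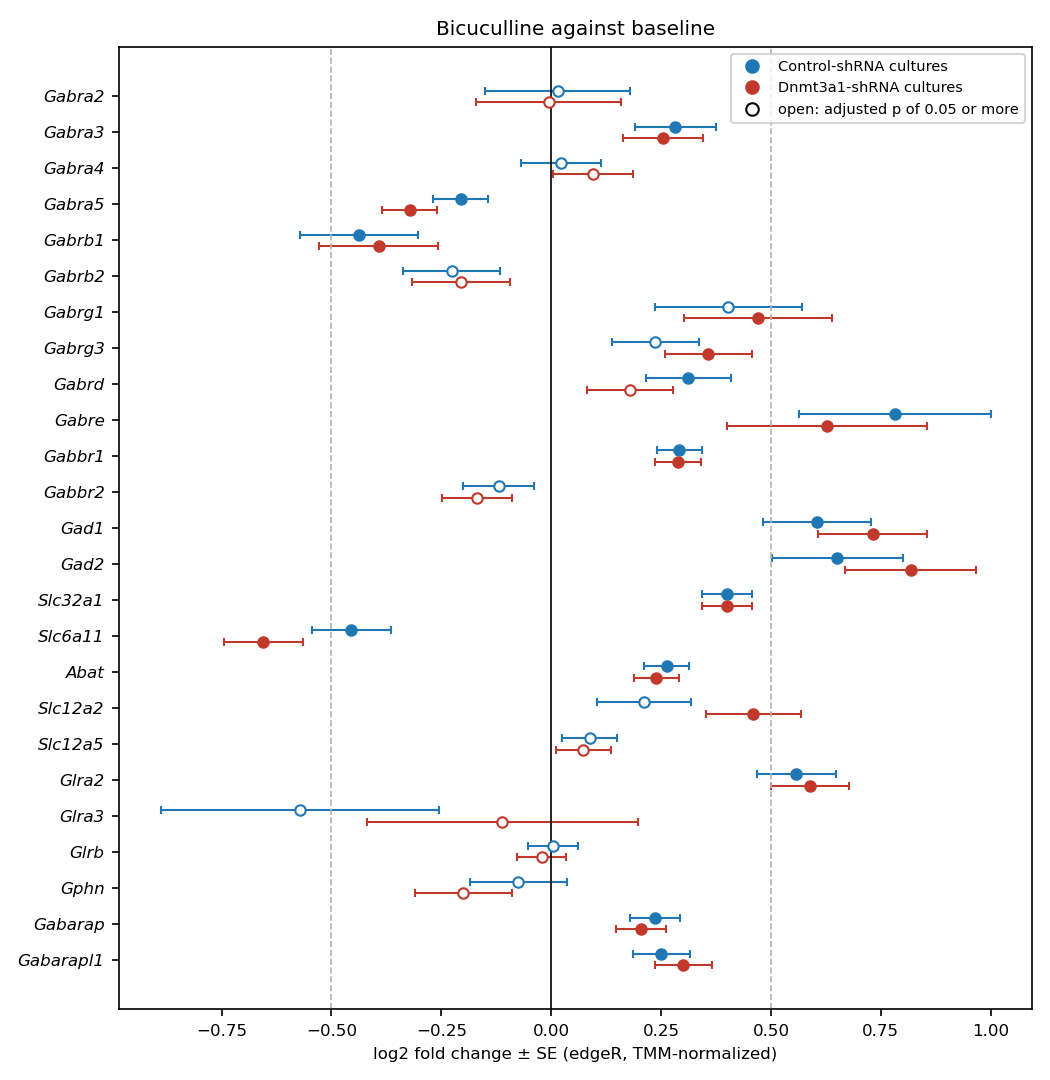
Log2 fold change with bicuculline for the 25 genes tested (points, ± SE from edgeR), in Control-shRNA (blue) and Dnmt3a1-shRNA cultures (red), n = 4 libraries per group; open points have an adjusted p of 0.05 or more and dashed lines mark 0.5 in size. Gad1, Gad2, Gabre and Glra2 lie past the upper line in both, and Slc6a11 lies lowest in the Dnmt3a1-shRNA cultures.

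Gad1, which encodes the GAD67 enzyme (chromosome 2, 70553072 to 70602014, GRCm38), was at 776, 644, 656 and 837 CPM in Control-shRNA baseline and at 1268, 968, 1036 and 1157 CPM with bicuculline. In Dnmt3a1-shRNA cultures it was at 645, 441, 534 and 559 CPM at baseline and at 1050, 804, 795 and 966 CPM with bicuculline. Every bicuculline library stood above every baseline library of the same shRNA. The log2 fold change was 0.61 ± 0.12 (SE; edgeR adjusted p = 0.000696), or 1.52-fold, in Control-shRNA cultures and 0.73 ± 0.12 (adjusted p = 9.66e-05), or 1.66-fold, in Dnmt3a1-shRNA cultures. The former was 0.45, under the fold threshold but still higher (adjusted p = 0.00103), when scaled to library size alone. Gad2, which encodes the smaller GAD65 enzyme of the nerve terminal (chromosome 2, 22622205 to 22693874), moved alike. Its levels were 336, 262, 276 and 382 CPM in Control-shRNA baseline, 558, 419, 434 and 561 CPM in Control-shRNA bicuculline, 284, 208, 235 and 288 CPM in Dnmt3a1-shRNA baseline and 537, 424, 350 and 477 CPM in Dnmt3a1-shRNA bicuculline. It rose by 0.65 ± 0.15 (adjusted p = 0.00182) and 0.82 ± 0.15 (adjusted p = 0.000208) on the log2 scale, with no overlap between baseline and bicuculline. Under library-size scaling the former was 0.49 (adjusted p = 0.0032), again under the fold threshold.

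Slc32a1, the vesicular transporter that loads GABA and glycine, was at 257, 267, 238 and 269.7 CPM in Control-shRNA baseline and 342, 328, 334 and 357 CPM with bicuculline. It was at 247, 241, 235 and 226 CPM in Dnmt3a1-shRNA baseline and 324, 287, 310.4 and 331 CPM with bicuculline. The groups did not overlap, and the rise of 0.40 ± 0.06 (adjusted p = 2.31e-05) and 0.40 ± 0.06 (adjusted p = 1.79e-05) stayed under the fold threshold. Abat, the mitochondrial GABA transaminase that breaks GABA down, rose by 0.26 ± 0.05 and 0.24 ± 0.05 (adjusted p = 0.00047 and 0.000901), but under library-size scaling the values were 0.10 and 0.09 (adjusted p = 0.153 and 0.215) and did not pass.

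Slc6a11, the GABA transporter GAT-3 that clears GABA mainly into astrocytes (chromosome 6, 114131241 to 114249952), went the other way. It was at 131, 137, 112 and 117 CPM in Control-shRNA baseline and 88.4, 102, 86.9 and 85.2 CPM with bicuculline, and at 162, 161, 125 and 166 CPM in Dnmt3a1-shRNA baseline and 101, 91.1, 93.6 and 104 CPM with bicuculline. All 8 bicuculline libraries were below all 8 baseline libraries. Its log2 fold change was -0.45 ± 0.09 (adjusted p = 0.000541) in Control-shRNA and -0.66 ± 0.09 (adjusted p = 1.09e-05) in Dnmt3a1-shRNA cultures, and only the latter was called; with library sizes alone both were, at -0.61 and -0.80. The astrocyte markers did not fall with it under TMM scaling. Of 12 tested, 2 rose and 0 fell in each kind of culture, where 19.5% and 20.8% of all genes rose. With library sizes alone, 1 rose and 1 fell in Control-shRNA and 1 rose and 0 fell in Dnmt3a1-shRNA cultures. Sox9, an astroglial transcription factor, rose by 1.09 ± 0.18 in Control-shRNA cultures. Slc1a2, also of that list, had a lower mean with bicuculline, with overlapping ranges. It went from 84.2 to 67.5 TPM in Control-shRNA and from 67.0 to 58.3 TPM in Dnmt3a1-shRNA cultures. The median of the 12 was 0.30 in Control-shRNA and 0.27 in Dnmt3a1-shRNA cultures (0.14 and 0.12 with library sizes alone). The summed level of that list was 592 to 791 TPM in Control-shRNA baseline, 508 to 799 TPM in Control-shRNA bicuculline, 561 to 923 TPM in Dnmt3a1-shRNA baseline and 635 to 921 TPM in Dnmt3a1-shRNA bicuculline, with overlapping ranges.

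**Figure D3:**
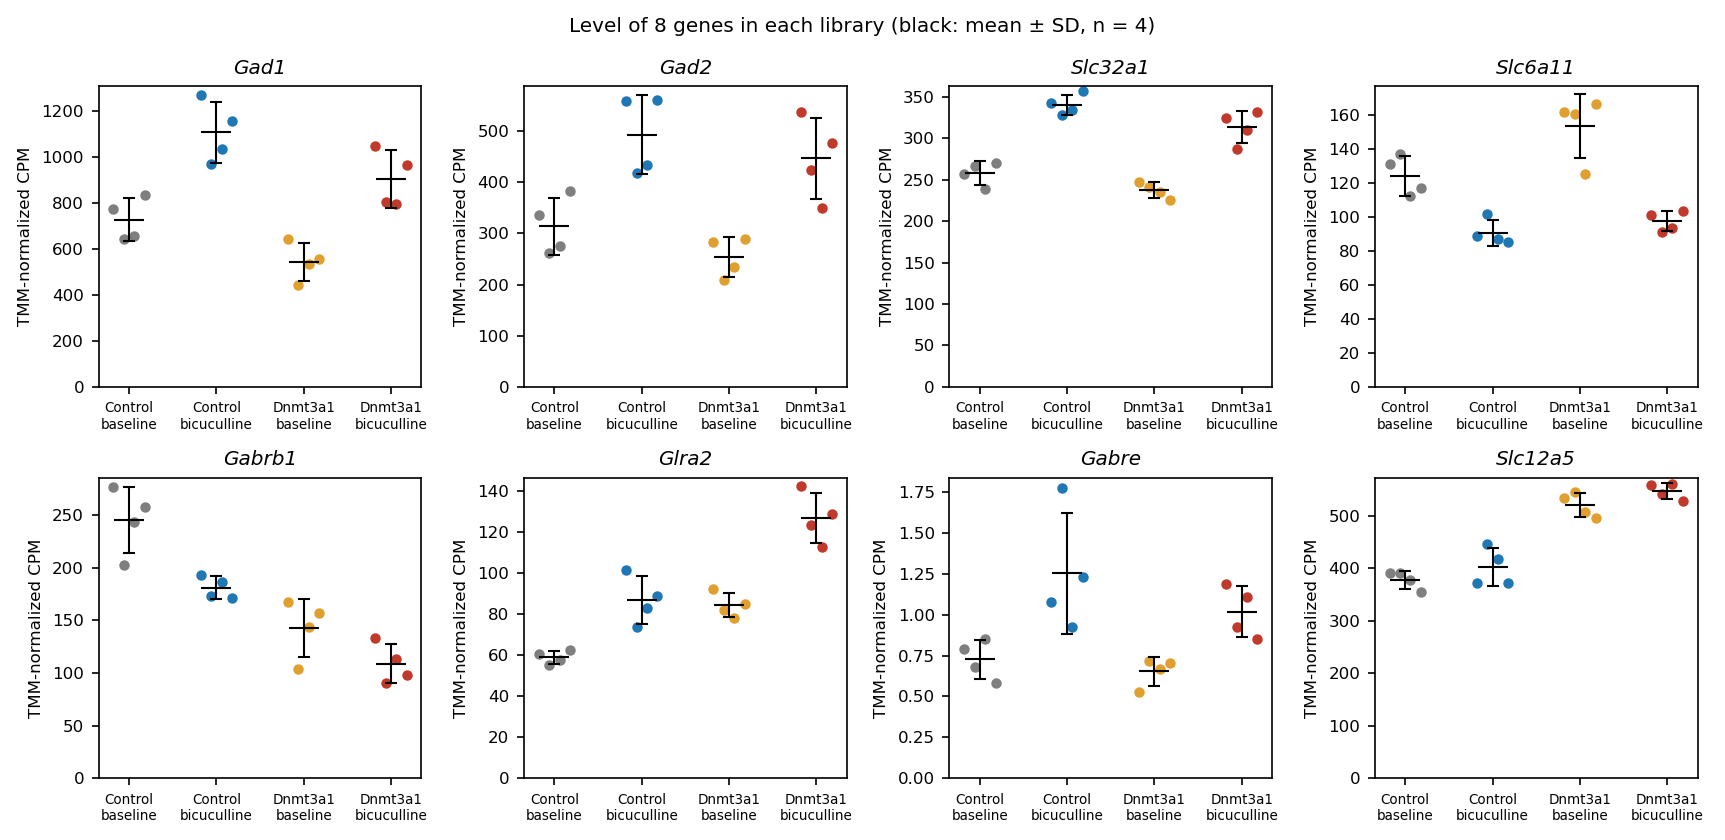
Level of 8 genes in each library (points, TMM-normalized CPM) in the 4 groups of 4 libraries, with the mean ± SD in black. For Gad1, Gad2, Slc32a1, Gabre and Glra2 the bicuculline libraries stand above the baseline libraries of the same shRNA, for Slc6a11 they stand below, and Gabrb1 and Slc12a5 separate the Dnmt3a1-shRNA from the Control-shRNA libraries at each condition.

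Of 17 markers of GABAergic interneurons tested of the 18 listed, 9 rose, 0 fell and 8 did not pass with bicuculline in Control-shRNA cultures, and likewise in Dnmt3a1-shRNA cultures, with 6 and 7 past the fold threshold. Of all genes, 19.5% and 20.8% rose. The median log2 fold changes were 0.25 and 0.37, and with library sizes alone 6 and 8 rose and 0 fell. Among those called, Cort, the neuropeptide cortistatin, rose by 1.05 ± 0.12 (adjusted p = 1.18e-06) and 1.64 ± 0.13 (adjusted p = 1.15e-08). Sst, the neuropeptide somatostatin, rose by 0.62 ± 0.13 and 0.92 ± 0.13. The list summed to 2441 to 2805 TPM in Control-shRNA baseline, 2856 to 3953 TPM in Control-shRNA bicuculline, 1554 to 2114 TPM in Dnmt3a1-shRNA baseline and 2375 to 3050 TPM in Dnmt3a1-shRNA bicuculline. Sst was the largest part of that sum, at means of 1550, 2074, 1006 and 1651 TPM in these groups in turn. The neuropeptide Npy was at means of 347, 478, 156 and 259 TPM, so the sum does not stand for the list as a whole. No marker of the list was at 0 throughout a group, and the part of these shifts in the Gad1 and Gad2 values was not tested. Lhx6, which defines interneurons of the medial ganglionic eminence, was at 76.4 to 81.8 TPM in Control-shRNA baseline and 69.4 to 80.4 TPM in Control-shRNA bicuculline, ranges that overlap. It was lower in Dnmt3a1-shRNA baseline, at 60.9 to 68.6 TPM, without overlap with Control-shRNA baseline. In Dnmt3a1-shRNA bicuculline it was at 60.1 to 70.5 TPM, which overlaps Control-shRNA bicuculline. These TPM carry no TMM factor, unlike the fold changes above.

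Markers of excitatory neurons, by contrast, moved both ways. Of 12 tested, 5 rose and 3 fell with bicuculline in each kind of culture. Of all genes, 19.5% rose and 21.9% fell in Control-shRNA and 20.8% rose and 25.2% fell in Dnmt3a1-shRNA cultures. With library sizes alone, 4 of these markers rose and 4 fell in Control-shRNA, and 4 rose and 3 fell in Dnmt3a1-shRNA cultures. Nrn1, an activity-induced surface protein, rose by 2.30 ± 0.16 and 2.56 ± 0.16, Fezf2, a transcription factor of deep-layer projection neurons, by 2.14 ± 0.11 and 2.28 ± 0.11, and Slc17a6, the vesicular glutamate transporter VGLUT2, by 1.54 ± 0.16 and 1.53 ± 0.16. Neurod6, a helix-loop-helix factor, fell by 1.29 ± 0.16 and 1.14 ± 0.16. Of 10 pan-neuronal markers, 6 rose and 1 fell in Control-shRNA and 6 rose and 2 fell in Dnmt3a1-shRNA cultures. With library sizes alone, 3 of them rose and 2 fell in each, and their median was 0.06 in each instead of 0.22 and 0.21. Nefl, a neurofilament, was higher by 1.25 ± 0.10 and 1.39 ± 0.10, and Tubb3, a neuronal tubulin, was at -0.77 ± 0.09 and -1.12 ± 0.09. Of 8 markers of the oligodendrocyte lineage 1 fell in each. Of 6 microglia markers tested, 0 passed in Control-shRNA cultures and 1 rose in Dnmt3a1-shRNA cultures, Itgam, an integrin, by 1.04 ± 0.29. Itgam was very low, at a mean of 0.322 CPM in Dnmt3a1-shRNA baseline and 0.672 CPM in Dnmt3a1-shRNA bicuculline. With knockdown, 2 excitatory markers rose and 0 fell at baseline, and 3 rose and 1 fell with bicuculline. Of all genes, 8.12% rose and 8.19% fell with knockdown at baseline, and 7.69% rose and 9.99% fell with bicuculline. With library sizes alone, 1 excitatory marker rose and 1 fell at baseline, and 2 rose and 2 fell with bicuculline.

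Among the GABA-A receptor alpha subunits, Gabra5 fell and Gabra3 rose with bicuculline. Gabra5 fell from 304, 268, 282 and 292 CPM in Control-shRNA baseline to 277, 239.5, 236 and 242 CPM in Control-shRNA bicuculline, where replicate 1 overlapped the baseline range. In Dnmt3a1-shRNA cultures it fell from 282, 266, 255 and 271 to 231, 214, 203 and 212 CPM, without overlap. The log2 fold changes were -0.21 ± 0.06 (adjusted p = 0.0133) and -0.32 ± 0.06 (adjusted p = 0.000379). Gabra2 had 0.02 and -0.01 (adjusted p = 0.952 and 0.982), with wide spreads of 381 to 509 CPM in Control-shRNA baseline and 375 to 573 CPM in Control-shRNA bicuculline. In TPM, Gabra5 was above Gabra2 in 4 of 4 Control-shRNA baseline libraries, in 2 of 4 of Control-shRNA bicuculline, in 2 of 4 of Dnmt3a1-shRNA baseline and in 0 of 4 of Dnmt3a1-shRNA bicuculline. The ratio of Gabra5 to Gabra2 ran from 1.13 to 1.39 in the first of these groups and from 0.604 to 0.875 in the last, a comparison of levels that was chosen after the values were seen and was not tested. Gabra3, an alpha subunit strong in early development, rose by 0.28 ± 0.09 and 0.25 ± 0.09 (adjusted p = 0.0192 and 0.0293), but had 0.12 and 0.10 under library-size scaling (adjusted p = 0.423 and 0.501). The former was also lost without Control-shRNA baseline replicate 1 or 4 or Control-shRNA bicuculline replicate 2 or 3 (adjusted p from 0.0543 to 0.0801), and the latter without Dnmt3a1-shRNA baseline replicate 1, 2 or 4 or Dnmt3a1-shRNA bicuculline replicate 2 or 3 (adjusted p from 0.0568 to 0.116). Gabra4, which pairs with the delta subunit, had 0.02 and 0.10 (adjusted p = 0.871 and 0.423).

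Gabre, the rare epsilon subunit (chromosome X, 72255999 to 72274803), had the highest fold change with bicuculline in Control-shRNA cultures of the 25 genes, at a very low level. It was at 0.790, 0.679, 0.852 and 0.584 CPM in Control-shRNA baseline and 1.08, 1.78, 0.927 and 1.23 CPM with bicuculline, and at 0.527, 0.719, 0.667 and 0.707 and 1.19, 0.926, 1.11 and 0.849 CPM in Dnmt3a1-shRNA baseline and bicuculline. The ranges did not overlap within a shRNA, though the gap was small. It rose by 0.78 ± 0.22 (adjusted p = 0.00778) and 0.63 ± 0.23 (adjusted p = 0.0314). The latter did not pass with library sizes alone (0.48, adjusted p = 0.106) or with DESeq2 (adjusted p = 0.069) or without Dnmt3a1-shRNA baseline replicate 1 or 3 or Dnmt3a1-shRNA bicuculline replicate 1 or 3 (adjusted p from 0.0543 to 0.0924). Of the gamma subunits, Gabrg1 rose by 0.47 ± 0.17 (adjusted p = 0.029) and Gabrg3 by 0.36 ± 0.10 (adjusted p = 0.00649) in Dnmt3a1-shRNA cultures. In Control-shRNA cultures they had 0.40 ± 0.17 (adjusted p = 0.063) and 0.24 ± 0.10 (adjusted p = 0.0645), which passed with the replicate number as a block (adjusted p = 0.000737 and 0.0112). None of these 4 gamma subunit values passed with library sizes alone, and that of Gabrg1 in Dnmt3a1-shRNA cultures was also lost without Dnmt3a1-shRNA baseline replicate 1, 2 or 4 or Dnmt3a1-shRNA bicuculline replicate 2 or 3 (adjusted p from 0.0553 to 0.103). Gabrd had 0.18 ± 0.10 in Dnmt3a1-shRNA cultures (adjusted p = 0.151), which passed with the replicate block (adjusted p = 0.0449). In Control-shRNA cultures it rose by 0.31 ± 0.10 (adjusted p = 0.0148), which did not pass with library sizes alone (adjusted p = 0.157). The rise was lost without Control-shRNA baseline replicate 2 or 3 or Control-shRNA bicuculline replicate 1 (adjusted p from 0.0507 to 0.057).

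Gabrb1, a beta subunit (chromosome 5, 71658113 to 72149037), fell with knockdown in both conditions and, by less, with bicuculline. It was at 276, 203, 244 and 258 CPM in Control-shRNA baseline and at 167, 104, 144 and 157 CPM in Dnmt3a1-shRNA baseline. With bicuculline it was at 193, 173, 186 and 171 CPM in Control-shRNA and 133, 90.9, 113 and 98.4 CPM in Dnmt3a1-shRNA cultures. At each condition all 4 knockdown libraries lay below all 4 Control-shRNA libraries. The log2 fold change with knockdown was -0.78 ± 0.14 (adjusted p = 0.000691), to 0.583 of the control level, at baseline and -0.73 ± 0.14 (adjusted p = 0.0012) with bicuculline, and both stayed called in each of the 16 fits that left out 1 library. With bicuculline it fell by 0.44 ± 0.13 (adjusted p = 0.014) in Control-shRNA and by 0.39 ± 0.14 (adjusted p = 0.024) in Dnmt3a1-shRNA cultures. The former was lost without Control-shRNA baseline replicate 1 (adjusted p = 0.0502) and the latter without Dnmt3a1-shRNA baseline replicate 1 or 4 or Dnmt3a1-shRNA bicuculline replicate 2 or 4 (adjusted p from 0.0656 to 0.0884). The start of Gabrb1 overlaps the start of Gabra4, its neighbour on the other strand, over 196 bases (71658113 to 71658308 on chromosome 5), and whether strand was used in counting is not given in the sources used here, so reads from the overlap may not be told apart. Gabra4 had -0.04 and 0.03 with knockdown (adjusted p = 0.796 and 0.862). Gabra2 and Gabrg1 lie in the same cluster on chromosome 5. Gabra2 had 0.33 ± 0.17 at baseline and 0.31 ± 0.17 with bicuculline (adjusted p = 0.201 and 0.218), which passed with the replicate number as a block (adjusted p = 0.000922 and 0.00118), and Gabrg1 had -0.08 and -0.01 (adjusted p = 0.8 and 0.971).

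Over all 25 genes, knockdown at baseline raised 4 and lowered 4 (16% each), where 8.12% of all genes rose and 8.19% fell. Called were 1 higher and 1 lower (4% each, against 1.76% and 4.07% of all genes). With bicuculline present, 3 rose and 4 fell (12% and 16%), where 7.69% of all genes rose and 9.99% fell, and again 1 was called higher and 1 lower (4% each, against 2.0% and 3.9%). The median log2 fold change was -0.04 and -0.02 in these genes and 0.01 and -0.01 in all genes. The 2 comparisons share no library, but same-numbered baseline and bicuculline libraries deviated together. Pearson r was from 0.224 to 0.345 in Control-shRNA and from 0.0949 to 0.477 in Dnmt3a1-shRNA cultures. Passing in both were Gabrb1 and Gabrb2, which fell, and Glra2, Slc12a5 and Gabbr2, which rose, each in the same direction under library-size scaling. The share of all genes that passed in both conditions was not computed. With library sizes alone, however, 3 rose and 10 fell at baseline, with Gabra5, Gabrd, Gabbr1, Gad2, Slc32a1 and Gabarapl1 added to those lower and Slc6a11 no longer higher, and 3 rose and 7 fell with bicuculline, with Gabbr1, Gad1 and Slc32a1 added to those lower. Called were then 0 higher and 3 lower (Gabrb1, Gabrb2 and Gad1) at baseline, where 0.923% and 5.57% of all genes were, and 0 higher and 2 lower (Gabrb1 and Gabrb2) with bicuculline, where 1.23% and 5.20% were. The median under that scaling was -0.13 and -0.09 in these genes and -0.07 and -0.08 in all genes. The shares of all genes that rose or fell under it were not computed. With the replicate number as a block, 12 genes passed at baseline and 11 with bicuculline instead of 8 and 7. Over all genes the block raised the number called from 1004 to 1284 at baseline and from 1015 to 1338 with bicuculline.

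**Figure D4:**
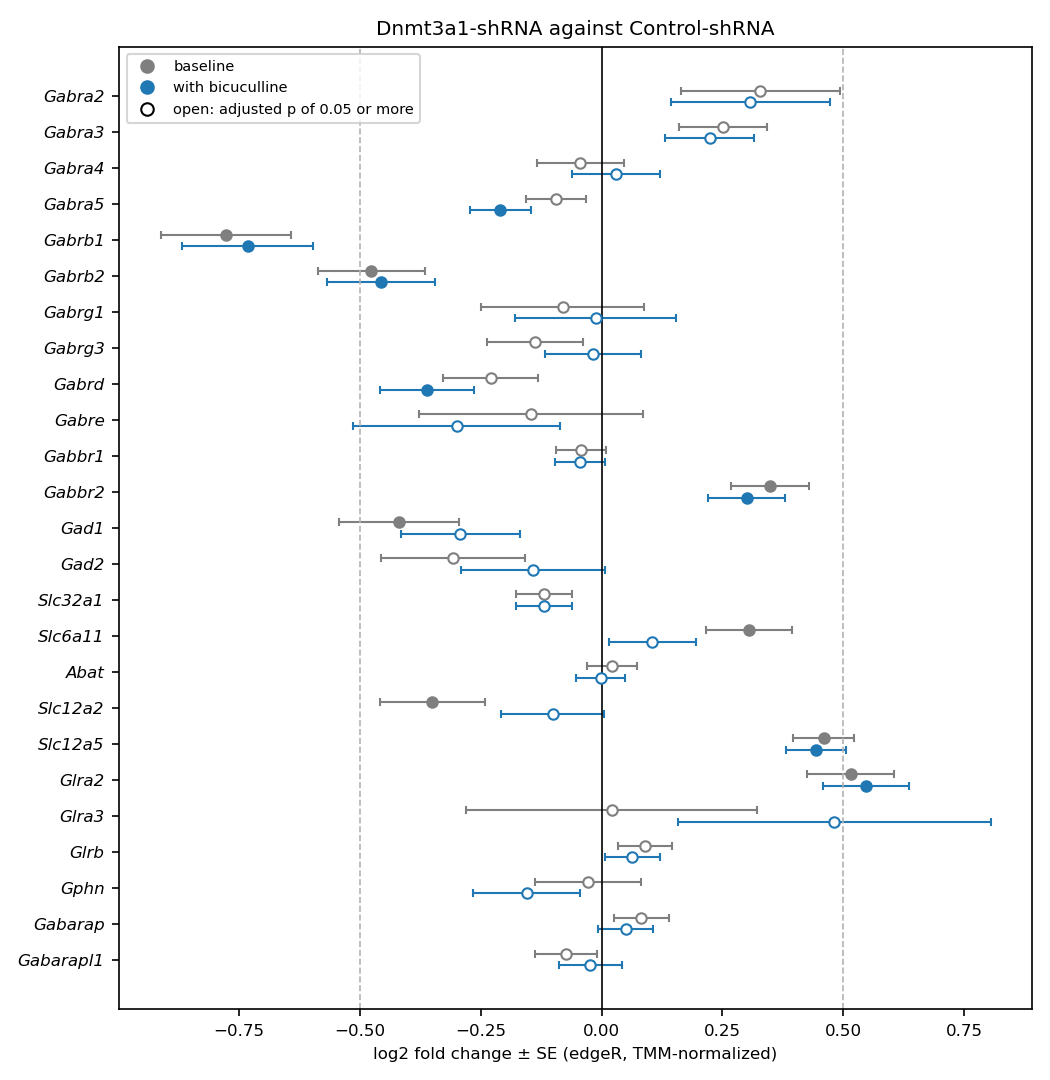
Log2 fold change with Dnmt3a1-shRNA against Control-shRNA for the 25 genes tested (points, ± SE from edgeR), at baseline (grey) and with bicuculline (blue), n = 4 libraries per group; open points have an adjusted p of 0.05 or more and dashed lines mark 0.5 in size. Gabrb1 lies past the lower line and Glra2 past the upper line in both conditions, with Slc12a5 just inside.

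Gabrb2, the other beta subunit listed here, fell by less than Gabrb1. It was at 73.2, 74.2, 87.0 and 92.5 CPM in Control-shRNA baseline and 61.9, 44.2, 68.4 and 60.5 CPM in Dnmt3a1-shRNA baseline, and at 74.6, 66.4, 69.4 and 68.9 CPM and 55.8, 51.8, 51.5 and 44.6 CPM in the respective bicuculline groups. The groups compared did not overlap. Its log2 fold change with knockdown was -0.48 ± 0.11 (adjusted p = 0.00669) at baseline and -0.46 ± 0.11 (adjusted p = 0.00879) with bicuculline, just under the fold threshold that both passed with library sizes alone (-0.56 and -0.53). Gabrd had -0.23 ± 0.10 at baseline (adjusted p = 0.124; 0.0225 with the replicate block) and fell by 0.36 ± 0.10 with bicuculline (adjusted p = 0.0154). Gabra5 had -0.09 ± 0.06 at baseline (adjusted p = 0.352) and fell by 0.21 ± 0.06 with bicuculline (adjusted p = 0.0273). That fall of Gabrd was lost without Dnmt3a1-shRNA bicuculline replicate 2 (adjusted p = 0.0516), and that of Gabra5 without Control-shRNA bicuculline replicate 1 or Dnmt3a1-shRNA bicuculline replicate 2, 3 or 4 (adjusted p from 0.0539 to 0.0749). Gabra3 had 0.25 ± 0.09 and 0.22 ± 0.09 (adjusted p = 0.0712 and 0.102), both of which passed with the replicate block (adjusted p = 0.00431 and 0.00768). Gabrg3 and Gabre had values of -0.14 and -0.15 at baseline that did not pass (adjusted p = 0.391 and 0.73).

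Glra2, the fetal glycine receptor alpha subunit (chromosome X, 165129017 to 165327393), was called higher in all 4 comparisons. It was at 60.7, 55.0, 57.7 and 62.5 CPM in Control-shRNA baseline, 102, 73.9, 83.1 and 88.8 CPM in Control-shRNA bicuculline, 92.0, 81.9, 78.1 and 85.2 CPM in Dnmt3a1-shRNA baseline and 142, 124, 113 and 129 CPM in Dnmt3a1-shRNA bicuculline. The first group lay below all others and the last above all others, while the middle groups overlapped. Bicuculline raised it by 0.56 ± 0.09 (adjusted p = 7.25e-05) and 0.59 ± 0.09 (adjusted p = 2.96e-05), and knockdown by 0.52 ± 0.09 (adjusted p = 0.000694) at baseline and 0.55 ± 0.09 (adjusted p = 0.000405) with bicuculline. With library sizes alone these were 0.40, 0.44, 0.43 and 0.48, all still higher (adjusted p at most 0.000303) but under the fold threshold. Leaving out 1 library also put it under the threshold, at 0.47 with bicuculline in Control-shRNA cultures without Control-shRNA bicuculline replicate 1, at 0.48 and 0.47 with knockdown at baseline without Control-shRNA baseline replicate 2 or Dnmt3a1-shRNA baseline replicate 1, and at 0.48 and 0.49 with knockdown in the presence of bicuculline without Control-shRNA bicuculline replicate 2 or Dnmt3a1-shRNA bicuculline replicate 1. Glrb, its partner subunit, had log2 fold changes between -0.02 and 0.09 in the 4 comparisons, with adjusted p from 0.318 to 0.958. Glra3 was at 0.856, 0.895, 1.98 and 1.01 CPM in Control-shRNA baseline and at 0.670, 0.923, 0.995 and 0.596 CPM with bicuculline, where its value of -0.57 ± 0.32 did not pass (adjusted p = 0.166). Of 7 genes of glycine transport and cleavage tested, 2 were called higher with bicuculline in each kind of culture, where 10.8% and 12.6% of all genes were. Slc6a5, the neuronal glycine transporter, rose by 1.06 ± 0.32 (adjusted p = 0.0118) in Control-shRNA cultures, at a very low level. Its mean was 0.330 CPM in Control-shRNA baseline and 0.697 CPM in Control-shRNA bicuculline. In Dnmt3a1-shRNA cultures it rose by 0.95 ± 0.30 (adjusted p = 0.0152).

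The cation-chloride cotransporters differed in how they moved. Slc12a5 encodes KCC2, which extrudes chloride from mature neurons, and was at 391, 390.3, 378 and 355 CPM in Control-shRNA baseline and 534, 545, 507 and 496 CPM in Dnmt3a1-shRNA baseline. With bicuculline it was at 373, 447, 417 and 373 CPM and 558, 542, 561 and 529 CPM. All 8 knockdown libraries were above all 8 Control-shRNA libraries. It rose with knockdown by 0.46 ± 0.06 (adjusted p = 7.44e-05) at baseline and 0.44 ± 0.06 (adjusted p = 0.000103) with bicuculline, and had 0.09 and 0.07 with bicuculline (adjusted p = 0.287 and 0.371). Slc12a2 encodes NKCC1, which brings chloride in, and was at 28.8, 29.1, 33.6 and 27.1 CPM in Control-shRNA baseline and 22.7, 20.1, 25.4 and 24.9 CPM in Dnmt3a1-shRNA baseline. It fell by 0.35 ± 0.11 with knockdown at baseline (adjusted p = 0.0341), and had -0.10 ± 0.11 with bicuculline (adjusted p = 0.564). The fall was lost without Control-shRNA baseline replicate 1, 2 or 3 or Dnmt3a1-shRNA baseline replicate 1 or 2 (adjusted p from 0.0572 to 0.116). With bicuculline it rose by 0.46 ± 0.11 in Dnmt3a1-shRNA cultures (adjusted p = 0.00196; 0.0536 with library sizes alone) and had 0.21 ± 0.11 in Control-shRNA cultures (adjusted p = 0.129).

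The ratio of Slc12a5 to Slc12a2 in TPM, which does not depend on how libraries are scaled, was 16.1, 15.7, 13.0 and 14.9 in Control-shRNA baseline and 27.2, 31.4, 22.6 and 23.0 in Dnmt3a1-shRNA baseline. With bicuculline it was 14.8, 13.7, 12.6 and 13.5 in Control-shRNA and 21.5, 17.2, 19.2 and 19.9 in Dnmt3a1-shRNA cultures. All knockdown libraries were above all Control-shRNA libraries. The log2 ratio was 0.79 higher with knockdown at baseline and 0.51 higher with bicuculline, each with p = 0.0286 by a two-sided exact permutation test over 4 against 4 libraries, the smallest p that design allows. Adjusted over the 16 tests of 4 ratios in 4 comparisons, p was 0.0653, so none of the 16 passed. In Dnmt3a1-shRNA cultures the log2 ratio was 0.41 lower with bicuculline (exact p = 0.0286, adjusted 0.0653), and in Control-shRNA cultures 0.13 lower (exact p = 0.171). Of 14 other genes of chloride homeostasis tested, Car7, a neuronal carbonic anhydrase, fell with knockdown by 1.19 ± 0.17 (adjusted p = 0.000118) at baseline and 1.09 ± 0.17 (adjusted p = 0.000362) with bicuculline. In that list 1 gene rose and 3 fell with knockdown in each condition. Of all genes, 8.12% rose and 8.19% fell at baseline, and 7.69% rose and 9.99% fell with bicuculline.

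The GABA-B receptor subunits, which work only as a pair, also moved apart. Gabbr1 was at 752, 686, 689 and 732 CPM in Control-shRNA baseline and 917, 879, 843 and 862 CPM with bicuculline, and at 717, 692, 671 and 699 and 895, 816, 825 and 858 CPM in Dnmt3a1-shRNA baseline and bicuculline. It rose with bicuculline by 0.29 ± 0.05 (adjusted p = 0.000198) and 0.29 ± 0.05 (adjusted p = 0.000175), with 0.13 and 0.14 when scaled to library size (adjusted p = 0.00928 and 0.00635), and had -0.04 and -0.04 with knockdown (adjusted p = 0.647 and 0.604). Gabbr2 was at 464, 412, 418 and 469 CPM in Control-shRNA baseline and 629, 489, 522 and 604 CPM in Dnmt3a1-shRNA baseline, and at 411, 409.7, 386 and 415 and 561, 473, 467 and 496 CPM in the bicuculline groups. It rose with knockdown by 0.35 ± 0.08 (adjusted p = 0.00626) and 0.30 ± 0.08 (adjusted p = 0.0153), without overlap. With bicuculline it had -0.12 and -0.17 (adjusted p = 0.256 and 0.0964), of which the latter passed with the replicate block (adjusted p = 0.0109). With library sizes alone these values were -0.28 and -0.32 and passed (adjusted p = 0.000652 and 0.000155). Its rise in the presence of bicuculline was lost without Control-shRNA bicuculline replicate 3 or Dnmt3a1-shRNA bicuculline replicate 1 (adjusted p from 0.0507 to 0.0547). In TPM, Gabbr1 was 2.83, 3.05, 2.92 and 2.78 times Gabbr2 in Control-shRNA baseline, 3.80, 3.82, 3.85 and 3.55 times in Control-shRNA bicuculline, 1.94, 2.51, 2.24 and 2.03 times in Dnmt3a1-shRNA baseline and 2.66, 2.97, 3.11 and 2.99 times in Dnmt3a1-shRNA bicuculline. The log2 ratio differed without overlap in all 4 comparisons, higher by 0.38 and 0.43 with bicuculline and lower by 0.42 and 0.36 with knockdown (exact p = 0.0286 and adjusted 0.0653 in each). Of 9 auxiliary subunits and effectors of GABA-B receptors tested, 4 were called higher and 1 lower with bicuculline in each kind of culture. Of all genes, 10.8% were called higher and 11.1% lower in Control-shRNA and 12.6% and 13.2% in Dnmt3a1-shRNA cultures. Kctd16 and Kctd8, auxiliary subunits that set the kinetics of the response, rose by 0.80 ± 0.17 and 0.99 ± 0.13 in Control-shRNA cultures. In Dnmt3a1-shRNA cultures they rose by 1.13 ± 0.17 and 1.01 ± 0.12. The channel subunits called in that list moved in opposite directions. Kcnj9, a channel subunit opened by the receptor, fell by 0.54 ± 0.08 in Control-shRNA and by 0.52 ± 0.08 in Dnmt3a1-shRNA cultures. Kcnj6, another such subunit, rose by 0.59 ± 0.11 in Control-shRNA and by 0.63 ± 0.11 in Dnmt3a1-shRNA cultures.

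**Figure D5:**
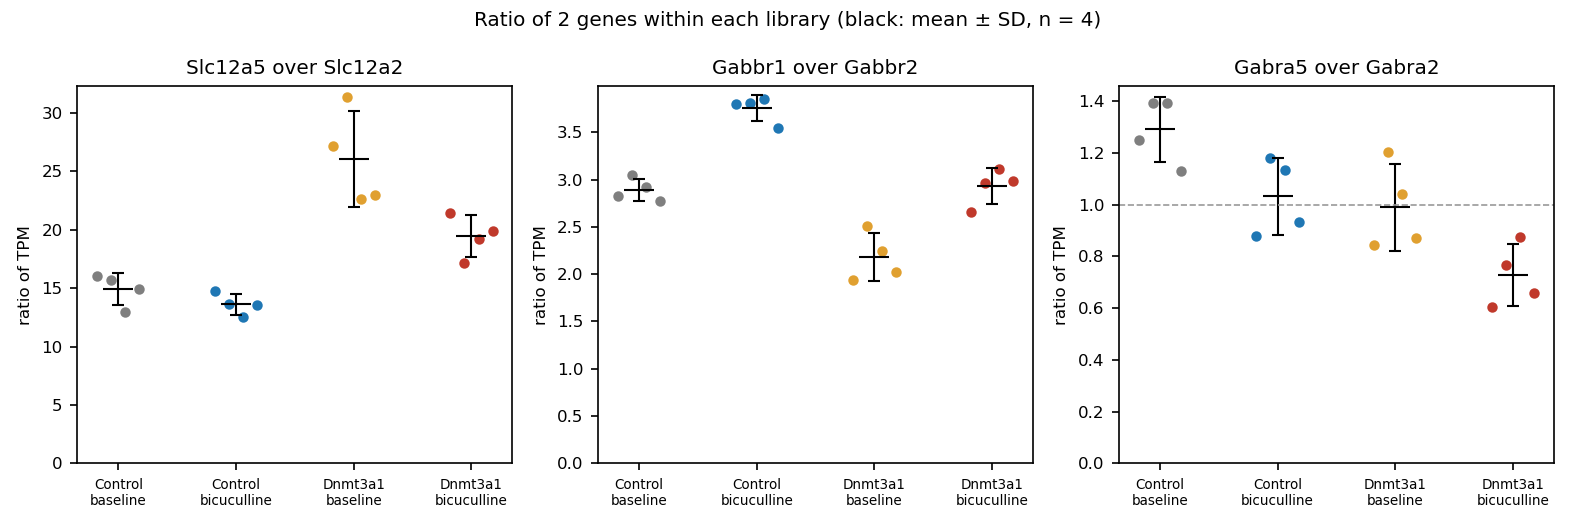
Ratio of the TPM of 2 genes within each library (points) in the 4 groups of 4 libraries, with the mean ± SD in black; the dashed line marks equal levels. Slc12a5 over Slc12a2 is above 17 in all Dnmt3a1-shRNA libraries and under 17 in all Control-shRNA libraries, Gabbr1 over Gabbr2 is highest in Control-shRNA bicuculline, and Gabra5 over Gabra2 is under 1 in all Dnmt3a1-shRNA bicuculline libraries.

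With knockdown, Gad1 fell by 0.42 ± 0.12 at baseline (adjusted p = 0.0267), where 1 library overlapped the Control-shRNA range, and had -0.29 ± 0.12 with bicuculline (adjusted p = 0.111). The fall of Gad1 at baseline was lost without Control-shRNA baseline replicate 1 or 4 or Dnmt3a1-shRNA baseline replicate 2, 3 or 4 (adjusted p from 0.0529 to 0.0953). Gad2 had -0.31 ± 0.15 and -0.14 ± 0.15 (adjusted p = 0.182 and 0.56). With the replicate number as a block, Gad1 with bicuculline (adjusted p = 0.000489) and Gad2 at baseline (adjusted p = 0.00161) passed. The log2 ratio of Gad1 to Gad2 differed by at most 0.20 in any comparison (exact p from 0.114 to 0.971). Of 17 interneuron markers, 5 were called lower and 0 higher at baseline and 3 and 0 with bicuculline, where 4.07% and 3.9% of all genes were called lower, and the others did not pass. The medians were -0.11 and -0.13, and with library sizes alone 6 and 5 fell and 0 rose. Among those called were Cort (-1.52 ± 0.13 at baseline, adjusted p = 3.37e-07), Npy, a neuropeptide (-1.05 ± 0.18, adjusted p = 0.000549), and Dlx5, a homeobox gene of the lineage (-0.98 ± 0.12, adjusted p = 2.64e-05, and -1.03 ± 0.12 with bicuculline). The part of these markers in the Gad1 value was not tested. Slc32a1 had -0.12 and -0.12 (adjusted p = 0.181 and 0.168) and Abat 0.02 and -0.00 (adjusted p = 0.826 and 0.982). Slc6a11 rose by 0.31 ± 0.09 at baseline (adjusted p = 0.0267; 0.0813 with library sizes alone) and had 0.10 ± 0.09 with bicuculline (adjusted p = 0.469). The rise was also lost without Control-shRNA baseline replicate 3 or 4 or Dnmt3a1-shRNA baseline replicate 1, 2 or 4 (adjusted p from 0.0612 to 0.0898). Of 12 astrocyte markers, S100b rose in both conditions, by 0.82 ± 0.23 at baseline, and the other 11 did not pass in either. Of all genes, 8.12% rose at baseline and 7.69% with bicuculline. S100b was low, at a mean of 0.750 CPM in Control-shRNA baseline and 1.33 CPM in Dnmt3a1-shRNA baseline. The median of the list was 0.39 at baseline and 0.40 with bicuculline, and its part in the Slc6a11 value was not tested.

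Among the scaffold genes, Gphn, which encodes gephyrin, had log2 fold changes of -0.07 and -0.20 with bicuculline and -0.03 and -0.16 with knockdown (adjusted p from 0.152 to 0.895). With the replicate block, the value with bicuculline in Dnmt3a1-shRNA cultures passed (adjusted p = 0.0023). That with knockdown in the presence of bicuculline also passed with the block (adjusted p = 0.0289). With library sizes alone it fell with bicuculline, by 0.23 in Control-shRNA (adjusted p = 0.04) and by 0.35 in Dnmt3a1-shRNA cultures (adjusted p = 0.00306). Gabarap, which binds GABA-A receptors during their trafficking, rose with bicuculline by 0.24 ± 0.06 and 0.20 ± 0.06 (adjusted p = 0.00282 and 0.00692), and its relative Gabarapl1 by 0.25 ± 0.06 and 0.30 ± 0.06 (adjusted p = 0.00449 and 0.0009). With library sizes alone the values of Gabarap were 0.08 and 0.06 and neither passed, and of those of Gabarapl1 (0.09 and 0.15) the latter did. Both are also autophagy proteins, and the log2 ratio of Gabarapl1 to Gabarap differed by at most 0.17 (exact p of 0.143 or more). Of 26 organizers of the inhibitory synapse tested, 3 were called higher and 1 lower with bicuculline in each kind of culture. Of all genes, 10.8% were called higher and 11.1% lower in Control-shRNA and 12.6% and 13.2% in Dnmt3a1-shRNA cultures. Npas4, an activity-induced transcription factor, rose by 7.32 ± 0.26 in Control-shRNA and 6.63 ± 0.25 in Dnmt3a1-shRNA cultures. Nlgn3, the adhesion protein neuroligin 3, fell by 0.75 ± 0.08 and 0.98 ± 0.08. With knockdown, Mdga1, which binds and blocks neuroligins, rose by 1.16 ± 0.24 (adjusted p = 0.00273) at baseline and 1.10 ± 0.24 (adjusted p = 0.0039) with bicuculline. Of 10 further genes of GABA metabolism, 1 was called higher with bicuculline in each kind of culture, where 10.8% and 12.6% of all genes were. It was Slc38a2, a glutamine carrier, at 0.79 ± 0.10 in Control-shRNA and 0.97 ± 0.10 in Dnmt3a1-shRNA cultures. With knockdown at baseline 2 were called higher, among them Glul, glutamine synthetase (0.51 ± 0.16), and 1 lower. Of all genes, 1.76% were called higher and 4.07% lower there.

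Whether the response to bicuculline differed between the kinds of culture was tested by the interaction term. None of the 25 genes passed (adjusted p = 1 for each by edgeR), nor did any of all genes tested (0.0%), where 852 of 17222 had an unadjusted p under 0.05. Among the 25, 0 had an unadjusted p under 0.05, and the smallest was 0.121, for Slc12a2. The estimates ran from -0.20 ± 0.13 (SE) for Slc6a11 to 0.46 ± 0.44 for Glra3. Over all genes, DESeq2 called 17, the fit without a filter on low counts 3 and the fit with a replicate block 3.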

How the data were processed

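RNA from the 16 cultures was sequenced on the BGISeq-500 platform. Per the labels, the authors trimmed reads with Trim Galore 0.6.4 and quantified them with kallisto against GRCm38.p6 and deposited estimated counts and TPM per gene. Estimated counts were rounded and tested with edgeR 4.0.16 (R 4.3.3) over the 4 groups together (TMM, filterByExpr, quasi-likelihood), with Benjamini-Hochberg adjustment over 17222 genes. The test was checked on simulated data. Deposited TPM were used for levels between genes and for ratios of 2 genes, tested by exact permutation (SciPy 1.17.1). Replicate numbers come from the labels, and p-values measure the spread between these preparations. Same-numbered libraries deviated together, with r from 0.163 to 0.519 in 3 of 4 comparisons and from 0.0949 to 0.477 for bicuculline in Dnmt3a1-shRNA cultures. A fit with the replicate number as a block is therefore given as an alternative. The 27 genes and the related lists were chosen with earlier results of these data known. All 27 are accounted for, those called in any comparison are given per library, and of the related lists genes past 1 on the log2 scale are named, with a few others chosen after their values were seen. Results for some genes of these lists are not reported here. Alternatives were limma 3.58.1 (voom, and log2(TPM + 1) or log2(TPM + 0.1)), DESeq2 1.42.0, its size factors in edgeR, library sizes alone, no filter, the block, only the groups compared, no fold threshold and leaving out each of the 16 libraries. Replicates of a group differed by more than sampling noise. Figures were drawn with matplotlib 3.10.9.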

Additional observations from a re-analysis of the deposited data

Results flagged for a closer look

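In 4 of 100 groups of 4 libraries (25 genes in 4 groups), 1 library stood apart from the other 3 by Dixon's test, where chance flags about 1 in 20. Gabra4 was at 70.4 CPM in Dnmt3a1-shRNA bicuculline replicate 1 and at 61.4 to 62.8 CPM in the others. Gabra5 was at 277 CPM in Control-shRNA bicuculline replicate 1 and at 236 to 242 CPM in the others. Slc6a11 was at 125 CPM in Dnmt3a1-shRNA baseline replicate 3 and at 161 to 166 CPM in the others. Glra3 was at 1.98 CPM in Control-shRNA baseline replicate 3 and at 0.856 to 1.01 CPM in the others.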

How the results depend on the processing

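The number of genes called with bicuculline in Control-shRNA cultures (4) was 1 in both limma fits of TPM, and that with knockdown in the presence of bicuculline (2) was 1 in that with a pseudocount of 1. Without the fold threshold, 14 and 16 were called with bicuculline in Control-shRNA and Dnmt3a1-shRNA cultures and 8 and 7 with knockdown at baseline and with bicuculline. Leaving out 1 library gave 4 to 5, 4 to 7, 2 to 3 and 1 to 2 called genes in these 4 comparisons. The count with knockdown in the presence of bicuculline was 1 without Control-shRNA bicuculline replicate 2. The cause of these shifts was not tested. The other counts stayed within 1.5 times the main one, but their direction did not. With library sizes alone the calls went from 4 higher and 0 lower to 1 and 2 with bicuculline in Control-shRNA cultures, from 4 and 1 to 2 and 2 in Dnmt3a1-shRNA cultures, and from 1 and 1 to 0 and 3 with knockdown at baseline and 0 and 2 with bicuculline, and both limma fits of TPM likewise called fewer genes higher in each. The interaction called 0 of the 25 in every fit. No change that passed reversed in any of these fits. Of the 45 changes that passed, 21 passed in every fit and 24 were lost in at least 1, most often under limma on TPM (20 with a pseudocount of 0.1 and 19 with 1) and with library sizes alone (13). With TPM, as with library sizes alone, no TMM factor is applied. Of the 55 values that did not pass, 24 changed sign in some fit (100 sign changes), and none passed with the other sign. With the replicate block, all 45 changes still passed, and in Dnmt3a1-shRNA cultures 19 genes passed with bicuculline instead of 16 (Gabrd, Gabbr2 and Gphn added). Over all genes the block raised the number called in that comparison from 4436 to 4612. For the ratios, each exact sign-flip test within the replicate number, with 4 pairs, could not go under p = 0.125, and estimated counts in place of TPM moved no difference by more than the spread between libraries. Genes under about 1 CPM, Gabre and Glra3, have the widest errors.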
